A study of Homo sapiens with 7 samples.

Results

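The locus described here is the stretch of chromosome 6 from 31128000 to 31145000 (hg19) around POU5F1, and its members are the CpGs that the deposited files list there. They were chosen by position. The locus itself was picked from the data, because the 1 kb tile that holds the POU5F1 start had the 4th largest difference between WT CM and WT SC of 85087 tiles. Of 2587280 CpGs listed in any library, 24 lie in the window, and 13 of them had 10 or more reads in all 7 libraries. That is 13 of 1734462 such CpGs outside the mitochondrial genome.

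POU5F1 encodes OCT4, a POU-domain transcription factor that holds embryonic stem cells in the pluripotent state together with SOX2 and NANOG. The gene is shut off when such cells leave pluripotency, and in somatic cells its promoter and enhancers are known to carry DNA methylation. DNMT3A and DNMT3B place new methyl groups on CpGs. TET1, TET2 and TET3 oxidise them, which is a step towards their removal. The gene lies on the minus strand from 31132114 to 31138451, so that its start is at 31138451. In the RefSeq gene order TCF19 lies next to its 3′ end and PSORS1C3 next to its 5′ side.

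All libraries came from the human embryonic stem cell line HUES8, an established line, either carrying a triple knockout of the genes TET1, TET2 and TET3 (TKO) or wild type (WT). Both were taken through a monolayer cardiac differentiation with the Wnt pathway activator CHIR99021 and then the Wnt antagonist IWP2. TKO cells were sampled as stem cells (SC, day 0), at the cardiac mesoderm stage (CME, day 3) and at the cardiac progenitor stage (CP, day 8). WT cells were sampled at the same stages and as beating cardiomyocytes (CM, day 14 in the series text and day 15 in the sample description), after a medium change to lactate without glucose that enriches cardiomyocytes. The stage of the WT CM library rests on its title, since its source label names CME. Each genotype and stage is 1 library, and no label says whether the TKO cells are 1 clone. Every test below therefore compares libraries by their reads and cannot be set against a spread between cultures. A partial level cannot be told apart from a mix of fully methylated and unmethylated cells.

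Methylation was read by enhanced reduced representation bisulfite sequencing, which samples CpG-rich fragments. The level of a CpG is the share of its reads that kept C after bisulfite, summed over both strands. Many CpGs of the window have listed reads on a single strand in some libraries, so the strands read can differ between libraries compared. The files hold no expression, so silencing of POU5F1 itself was not measured here. Coverage summed over listed cytosines was 149053464 to 213058905 in TKO libraries and 120742115 to 158372334 in WT libraries. A read counts at each listed cytosine that it covers, so these are not numbers of reads. In the window, the 13 shared CpGs had 10 to 250 reads each per library. The share of C in mitochondrial reads, a measure of cytosine left unconverted, was 0.139% to 0.387% in the 3 TKO libraries, 0.219% in WT CP and 0.216% in WT CM, against 1.46% in WT SC and 1.44% in WT CME.

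The listed CpGs cover the locus unevenly. The largest cluster, 12 CpGs of which 7 were shared by all libraries, lies 81 to 475 bases into the gene, the stretch just after the start of transcription. A further 3 CpGs lie 5065 to 5233 bases upstream of the start, and 5 lie beyond the gene end, 8230 to 9018 bases from the start. No CpG was listed between the start and 5065 bases upstream, the stretch where the proximal and distal enhancers of POU5F1 are known to lie, so these are not described here. At the start itself 2 CpGs, 5 and 31 bases into the gene, were listed in TKO SC and TKO CME, and 2 CpGs deeper in the gene were listed in 1 TKO library each.

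In stem cells of both genotypes the beginning of the gene was nearly free of methylation, and it carried methylation at CP in both. Over the 7 shared CpGs of the first kb, TKO had a pooled level of 1.63% at SC, 10.8% at CME and, later, 37.4% at CP. The WT level was 5.83% in SC, 9.69% in CME, 37.1% in CP and 55.2% in CM. The mitochondrial share of C was not taken off these levels. At CP the intervals of the genotypes overlapped. The 95% Wilson intervals, which cover counting error only, were 32.4% to 42.7% for TKO CP and 31.3% to 43.2% for WT CP.

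**Figure D1:**
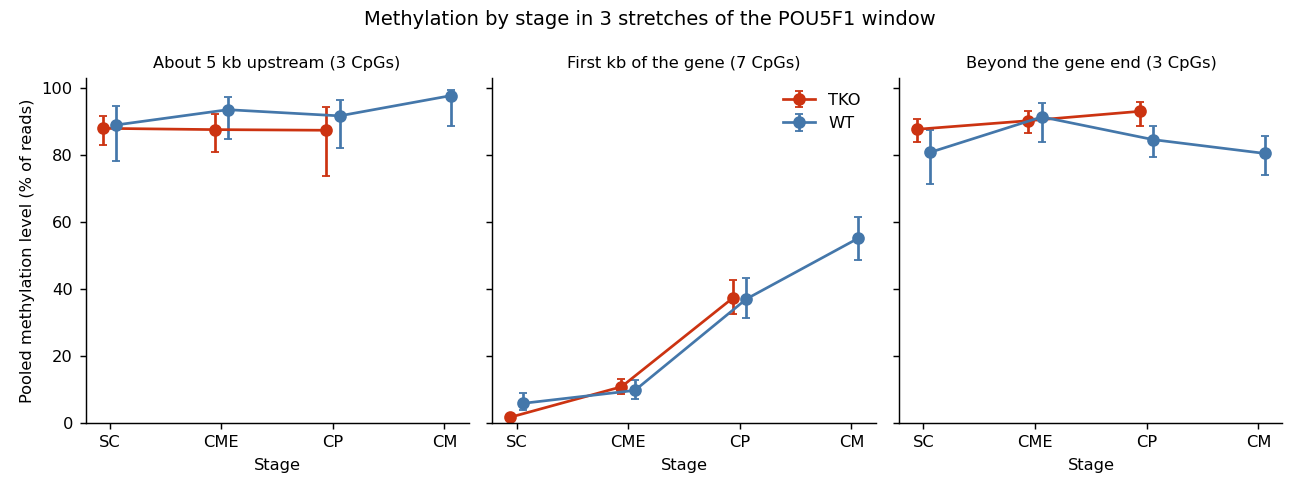
Pooled methylation level (% of reads, y axis) by stage (x axis) in TKO and WT libraries, for the 3 shared CpGs about 5 kb upstream, the 7 shared CpGs in the first kb of the gene and the 3 shared CpGs beyond the gene end; bars are 95% Wilson intervals of the reads of 1 library. The first kb stands at 1.63% in TKO SC and 37.4% in TKO CP, and at 5.83% in WT SC and 37.1% in WT CP, while both flanks lie above 80% at every stage.

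Both flanks were methylated from the stem cell stage on. About 5 kb upstream, the pooled level of the 3 CpGs was 88.1%, 87.7% and 87.5% in TKO at SC, CME and CP, and 89.1%, 93.7%, 91.8% and 97.9% in WT at SC, CME, CP and CM. Single CpGs there ranged from 80.0% to 100% in TKO and from 83.3% to 100% in WT, on 10 to 93 reads. The CpG at 31143516 had the widest range, from 80.0% in TKO CP to 100% in WT CM, and that at 31143529 the narrowest, from 85.5% in TKO CME to 100% in WT CME and WT CM. The third, at 31143684, ranged from 83.3% in TKO CME and WT SC to 100% in TKO CP and WT CP.

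Beyond the gene end, on the side of TCF19, the 3 shared CpGs stood at 87.8%, 90.4% and 93.2% in TKO at SC, CME and CP. In WT they stood at 80.9%, 91.5%, 84.7% and 80.6% in SC, CME, CP and CM. The CpG at 31129466 had the widest range, from 76.9% in WT CP to 93.8% in WT CME, and that at 31129433 the narrowest, from 78.6% in WT SC to 92.9% in TKO CP. The third, at 31129541, ranged from 77.9% in WT CM to 93.2% in TKO CP. The other listed CpGs there were at 76.5% in TKO SC and 76.9% in WT CME (31129993), and at 84.6% in TKO SC, 95% in WT SC and 84.6% in WT CME (31130221). None of the 6 flanking CpGs shared by all libraries was called in any of the 5 pairs of libraries tested. Over all CpGs, 0.237% (TKO CME and TKO SC) to 10.4% (TKO CP and WT CP) were called in either direction. With 6 CpGs, some on as few as 10 reads, no call is near that share and does not show that the flanks stayed the same.

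The CpGs of the first kb are described from the start inward, beginning with those closest to it. The CpGs 5 and 31 bases into the gene (31138446 and 31138420) had 0 methylated of 12 reads each in TKO SC, which allows a level of up to 25%. In TKO CME they had 1 and 0 methylated of 11 reads each. The CpG at 31138370 stood at 0% (0 of 29 reads, up to 10.3%), 5.36% and 25% in TKO at SC, CME and CP. In WT it stood at 0 of 28 reads in SC and again in CME, which allows up to 10.7%, and at 52.6% in CM. The CpG next to it, at 31138362, stood at 3.45%, 5.36% and 75.0% in TKO at SC, CME and CP, and at 3.70%, 10.3% and 68.2% in WT at SC, CME and CM. WT CP lists neither, so at these CpGs the genotypes cannot be set side by side at CP. The CpG at 31138317 was listed in TKO SC only, with 0 of 10 reads methylated.

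Further in, the CpG at 31138323 was low in stem cells and at CME and high at the later stages. It stood at 0% (0 of 39 reads, up to 7.69%), 3.08% and 62.5% in TKO at SC, CME and CP, and at 9.68%, 15.6%, 38.5% and 50% in WT at SC, CME, CP and CM. The CpG at 31138251 stood at 4.88%, 3.70% and 30.8% in TKO at SC, CME and CP. In WT it stood at 12.5%, 5.26% and 9.09% in SC, CME and CM, and at 0 of 12 reads in CP, which allows up to 25%. Of the 7 shared CpGs of the first kb it was the only one at which WT CP lay below WT CME. The CpG at 31138203 showed the opposite order at CP: it stood at 0% (0 of 83 reads, up to 3.61%), 5.56% and 23.1% in TKO at SC, CME and CP, and at 0% (0 of 17 reads, up to 17.6%), 5.56%, 61.5% and 45.5% in WT at SC, CME, CP and CM. These values at CP rest on 12 to 16 reads per library.

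The deepest values come from 3 CpGs that lie within 28 bases of each other and carried 86.2% of the reads of the start tile in TKO CP and 82.9% in WT CP. The CpG at 31138034 stood at 0% (0 of 184 reads, up to 1.63%), 17.6% and 50.5% in TKO at SC, CME and CP, and at 3.61%, 9.40%, 39.3% and 67.2% in WT at SC, CME, CP and CM. The CpG at 31138049 stood at 4.05%, 14.2% and 41.2% in TKO at SC, CME and CP. In WT it stood at 6.33%, 14.6%, 60.7% and 89.5% in SC, CME, CP and CM, and the last is the highest level of any CpG in the first kb. The CpG at 31138062, 13 bases away, stayed lower: it stood at 1.30%, 9.35% and 24.4% in TKO at SC, CME and CP, and at 6.06%, 6.74%, 22.6% and 29.8% in WT at SC, CME, CP and CM. In WT CM the intervals of the last pair, 19.5% to 42.7% at 31138062 and 78.9% to 95.1% at 31138049, did not overlap, with 57 reads at each. In WT CP the intervals of the same pair, 14.0% to 34.4% at 31138062 and 48.1% to 71.9% at 31138049, did not overlap either. In TKO CP they were 16.4% to 34.7% at 31138062 and 31.3% to 51.8% at 31138049, and overlapped.

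At the inner edge of the cluster the levels reached at most 31.3%. The CpG at 31137999 stood at 0% (0 of 85 reads, up to 3.53%), 4.29% and 18.2% in TKO at SC, CME and CP, and at 5.88%, 4.44%, 17.2% and 16.7% in WT at SC, CME, CP and CM. The CpG at 31137979, 472 bases into the gene, had no methylated read in the 3 TKO libraries (0 of 50, 0 of 18 and 0 of 16 reads, up to 6.00%, 16.7% and 18.8%). In WT it had none of 13 and 16 reads in SC and CME, and 6.25% of 16 reads in CP. Its neighbour at 31137976 had no methylated read in TKO SC and TKO CME (0 of 50 and 0 of 18, up to 6.00% and 16.7%), and stood at 18.8% in TKO CP. In WT it had 0 of 14 reads in SC (up to 21.4%), and stood at 6.25% in CME and 31.3% in CP. WT CM lists neither CpG. Deeper in the gene, 31137386 had 0 of 13 reads methylated in TKO CME and 31136544 had 0 of 10 in TKO SC, which allow up to 23.1% and 30%.

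**Figure D2:**
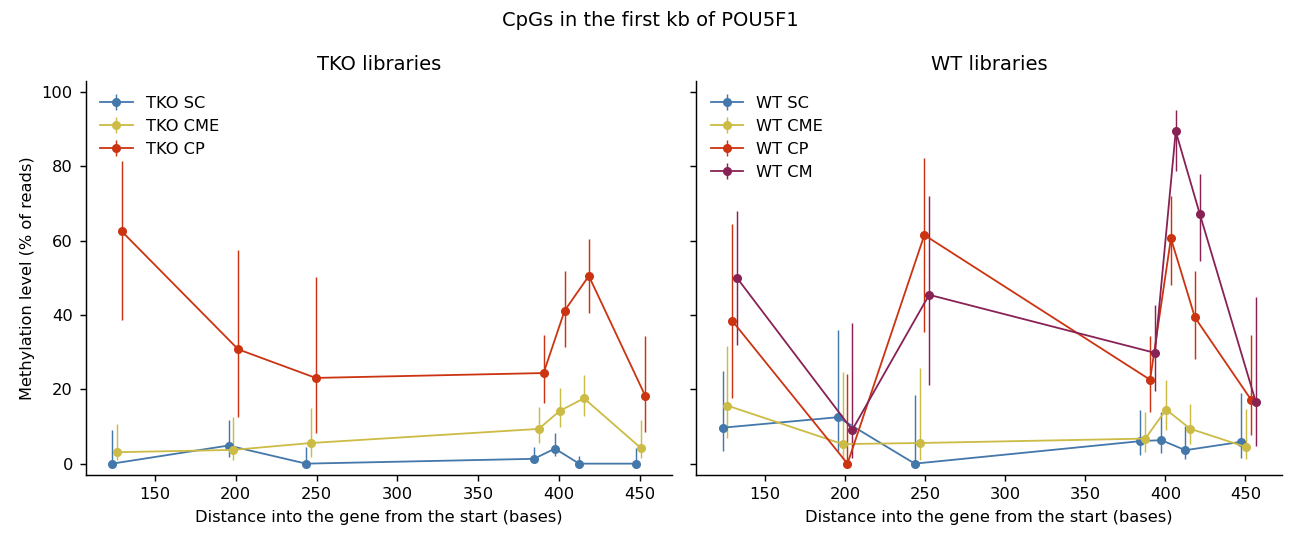
Methylation level (% of reads, y axis) of the 7 shared CpGs in the first kb of POU5F1 by their distance into the gene (bases, x axis), for TKO libraries on the left and WT libraries on the right, with stages in colour; bars are 95% Wilson intervals and points are shifted by a few bases so that the bars can be told apart. SC and CME points lie under 20%, CP points reach 62.5% in TKO and 61.5% in WT, and WT CM reaches 89.5%.

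Libraries were compared with Fisher's exact test (two-sided) on methylated and unmethylated reads, fitted over all 1734462 shared CpGs and over all 85087 tiles of 1 kb with 5 or more shared CpGs, with Benjamini-Hochberg adjustment. A CpG or tile was called if its adjusted p was below 0.01 and its difference at least 25 points. The tile with the POU5F1 start, from 31138001 to 31139000, holds 6 shared CpGs and is the only tile with a member that reached 5. In TKO it stood at 1.82% of 715 reads at SC, 11.5% of 663 at CME and 39.5% of 304 at CP. In WT it stood at 5.82% of 292 reads in SC, 10.3% of 378 in CME, 39.6% of 222 in CP and 57.3% of 220 in CM. The pair WT CM and WT SC brought the locus up, so their difference of 51.5 points is given without a test, as are the other pairs with either library: WT CM lay 17.6 points above WT CP, and TKO SC lay 4.00 points below WT SC (a difference of -4.00 points). The mitochondrial share of C, 1.46% in WT SC and 0.141% in TKO SC, was not taken off these levels.

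In TKO cells the tile rose between CME and CP. It stood at 39.5% in TKO CP, against 11.5% in TKO CME, a difference of 28.0 points (95% interval 22.1 to 34.0, adjusted p = 1.17e-20, Fisher's exact test), while the median tile differed by 1.5 points. In this pair 0.772% of all tiles were called higher, and the POU5F1 tile had rank 507 of 85087 by its difference. By CpG, all 7 shared CpGs of the first kb lay higher in TKO CP than in TKO CME, by 13.9 to 59.4 points, and 3 were called, where 0.995% of all CpGs were called higher. These were 31138323 (59.4 points, adjusted p = 3.40e-05), 31138034 (32.9 points, adjusted p = 4.48e-06) and 31138049 (27.0 points, adjusted p = 3.46e-04), by Fisher's exact test. At 31138049 TKO CP was read on the minus strand alone, on which TKO CME stood at 15.8%. The tile's call is not firm in 2 respects: on minus strand reads alone the difference was 24.4 points, under the 25 required, and with the tile's reads divided by its number of CpGs, so that a read spanning several is not counted at each, adjusted p was 0.0162.

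In WT cells the same tile rose over the same step. It stood at 39.6% in WT CP, against 10.3% in WT CME, a difference of 29.3 points (95% interval 22.2 to 36.4, adjusted p = 7.52e-16, Fisher's exact test). Over all tiles 0.0294% were called higher in this pair and 3.38% lower, the median tile differed by -1.71 points, and the POU5F1 tile had rank 12 of 85087 by its difference. Of the 7 shared CpGs of the first kb, 6 lay higher in WT CP and 2 were called, where 0.0795% of all CpGs were called higher. These were 31138049 (46.1 points, adjusted p = 2.27e-07) and 31138034 (29.9 points, adjusted p = 3.31e-04), by Fisher's exact test. WT CP was read on the minus strand alone at both. On that strand WT CME stood at 17.0% at 31138049 and 12.1% at 31138034, and on the plus strand at 0% at both. The tile's difference was 28.6 points on minus strand reads alone. It was 30.6 points once the mitochondrial share of C was taken off each library, and with reads divided by the number of CpGs its adjusted p was 0.0264. The descriptions of WT SC and WT CME carry a suffix that the other 5 libraries lack. Stage and this suffix cannot be told apart between WT CME and WT CP, nor between WT SC and WT CM. The same holds for genotype and suffix between WT SC and TKO SC. None of the TKO libraries carries the suffix. Neither WT CME nor WT CP was used to pick the locus. Both stages lie between WT SC and WT CM, whose difference did pick it, so a rise in some WT step was built into the choice. The rank and adjusted p of this step are therefore not independent of that choice.

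**Figure D3:**
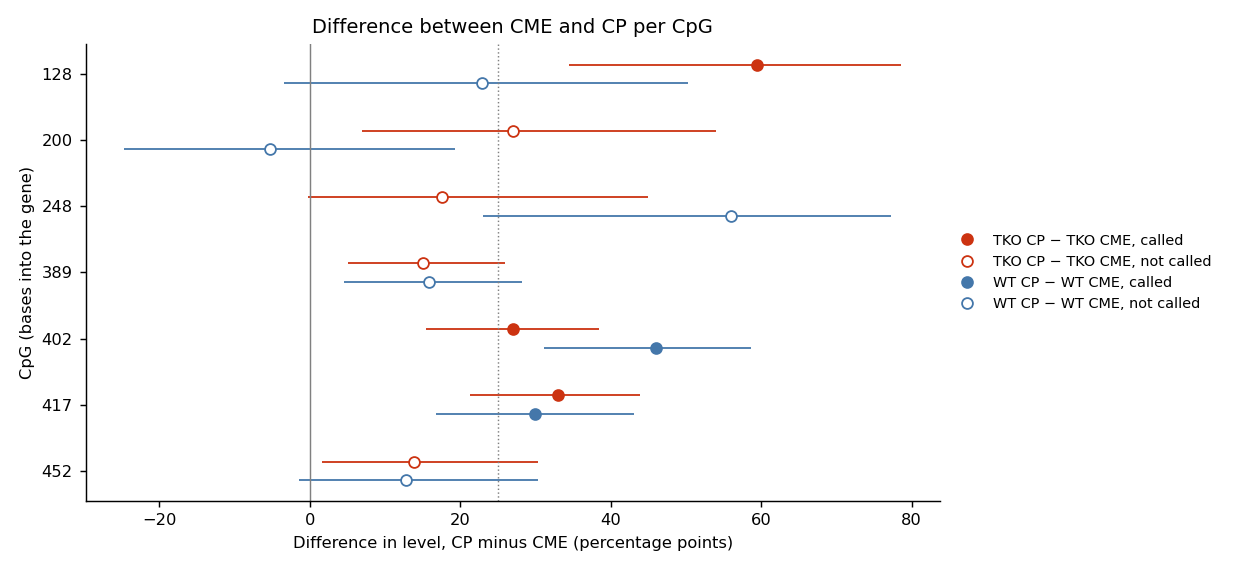
Difference in methylation level between CP and CME (percentage points, x axis) for each shared CpG of the first kb of POU5F1 (y axis, bases into the gene), in TKO and in WT; bars are 95% Newcombe intervals, filled points were called and the dotted line marks 25 points. All 7 TKO differences are above 0, from 13.9 to 59.4 points, and 6 of 7 WT differences are, with 55.98 points as the highest.

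The step before it was smaller. TKO CME stood at 11.5% and TKO SC at 1.82% over the tile, a difference of 9.64 points (95% interval 7.10 to 12.4, adjusted p = 4.93e-12, Fisher's exact test), which is under the 25 points of a call. With reads divided by the number of CpGs the difference was 10.03 points and the adjusted p was 1 (Fisher's exact test). In this pair 0.0411% of tiles and 0.237% of CpGs were called in either direction, and no CpG of the window was. By Fisher's exact test 3 CpGs had an unadjusted p below 0.05 and 31138034 had an adjusted p of 1.91e-07, at 17.6% in TKO CME against 0% in TKO SC. In TKO CME the 3 close CpGs together stood at 14.1%, against 4.05% for the other 3 of the tile. In WT the tile was 4.50 points higher in CME than in SC, which is given without a test.

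TKO and WT did not differ by a call at CME or at CP. At CP the tile stood at 39.5% in TKO and 39.6% in WT, a difference of -0.166 points with a 95% interval of -8.62 to 8.19 points (adjusted p = 1, Fisher's exact test). The interval spans differences of either sign below 9 points, but it treats the counts of neighbouring CpGs as separate reads. The 3 CpGs within 28 bases held 86.2% of the tile's counts in TKO CP and 82.9% in WT CP. Many of these counts can stem from the same reads, so the interval can be too narrow. It therefore cannot exclude a difference near the 25 points of a call. With reads divided by the number of CpGs, which leaves fewer to count, the difference was -1.32 points. In this pair 12.0% of all tiles were called higher in TKO CP and 0.0458% lower. At CME the tile stood at 11.5% in TKO and 10.3% in WT, a difference of 1.15 points (95% interval -2.97 to 4.91, adjusted p = 0.688, Fisher's exact test), where 6.10% of tiles were called in either direction and 6.02% higher in TKO CME. It was 2.17 points once the mitochondrial share of C was taken off each library, and 3.73 points over the 3 CpGs with 20 or more reads in all libraries, neither of them a call. WT CME carries the suffix and TKO CME does not, so genotype and suffix cannot be told apart in this pair.

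By single CpG, none of the 13 in the window was called at CP, where 10.4% of all CpGs were called in either direction, and none at CME, where 6.21% were. By Fisher's exact test 2 had an unadjusted p below 0.05 at CP and 1 at CME, and the lowest adjusted p was 0.0776 at CP, for 31129541 beyond the gene end (93.2% in TKO CP, 84.7% in WT CP), and 0.232 at CME, for 31138323 (3.08% in TKO CME, 15.6% in WT CME). The CpG differences within the first kb went both ways at CP, from -38.5 points at 31138203 to 30.8 points at 31138251, on 12 or 13 reads each. At 31138049 TKO CP stood at 41.2% and WT CP at 60.7%, a difference of -19.5 points with an interval of -34.5 to -3.05 (adjusted p = 0.150, Fisher's exact test). At these depths a difference of this size at a single CpG could not be told from counting error after adjustment.

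The step from CME to CP was also compared between the genotypes directly. The tile differed by 28.0 points in TKO and by 29.3 points in WT. The change of the genotype difference was -1.31 ± 4.76 points (SE from the reads, 95% interval -10.6 to 8.02). The z test over all tiles gave an adjusted p of 0.827, where 5.72% of tiles were called in either direction. WT CME is the 1 library of the 4 with the suffix, so the suffix cannot be told apart from this change either. By CpG none of the 13 was called by this test, where 3.85% of all CpGs were, and the unadjusted p was below 0.05 for 4. The lowest adjusted p was 0.249, for 31138251. The 2 CpGs with the largest changes of the difference were 31138203, at -38.5 points (interval -76.6 to -0.297), and 31138323, at 36.6 points (interval -1.63 to 74.8). Their adjusted p-values were 0.288 and 0.330.

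Few tiles were called higher over this step in both genotypes. Of the 25 tiles called higher in WT CP than in WT CME, 5 (20%) were also called higher over the TKO step. Over all tiles, 0.772% were called higher in TKO CP than in TKO CME. The 5 are 0.761% of the 657 tiles called in TKO, against 0.0294% of all tiles called higher in the WT step. The 2 pairs share no library. The POU5F1 tile was 1 of the 5, and the others started at 20704001 on chromosome 12, 57244001 on chromosome 20, 113574001 on chromosome 4 and 38297001 on chromosome 8. The tiles on chromosomes 4 and 12 were already at 21.3% or more in every library. Those on chromosomes 8 and 20, like the POU5F1 tile, were under 20% at SC and CME in both genotypes.

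**Figure D4:**
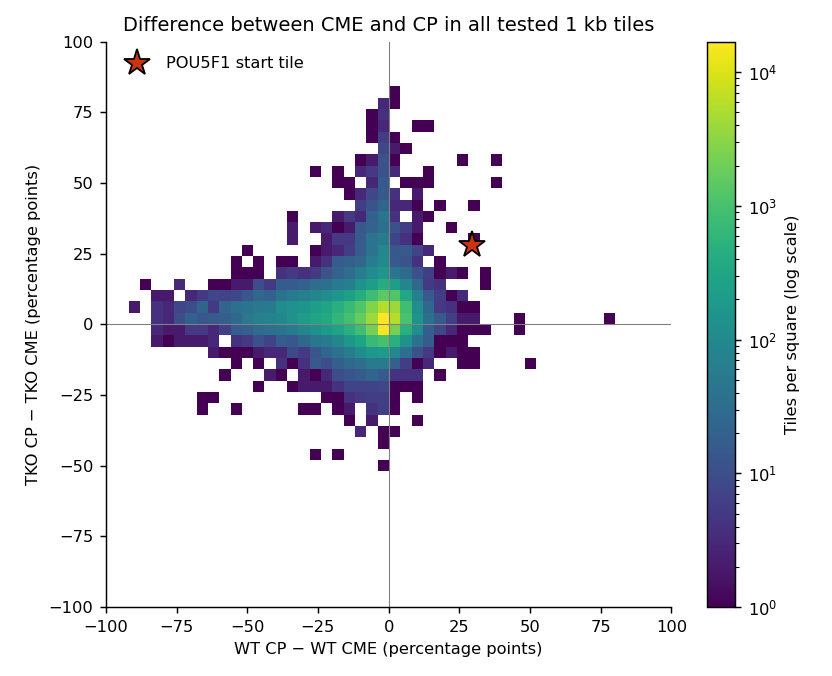
Difference in level between CP and CME in WT (x axis) and in TKO (y axis), both in percentage points, over 85087 tiles of 1 kb; the colour of a square gives its number of tiles on a log scale and the star marks the POU5F1 start tile. The star lies at 29.3 points in WT and 28.0 points in TKO, where few other tiles are found.

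The same 2 tiles on chromosomes 8 and 20 were among the 5 whose levels over the 7 libraries lay closest to those of the POU5F1 tile, by the root mean square difference. It was 8.00 points for 38297001 on chromosome 8, 9.47 for 33949001 on chromosome 16, 10.4 for 57244001 on chromosome 20, 10.6 for 176558001 on chromosome 5 and 11.3 for 136657001 on X. No tile lay within 5 points, 2 lay within 10 points and 17 within 15 points, of 85086 others. The tile on chromosome 8 stood at 4.06%, 15.6% and 56.7% in TKO at SC, CME and CP, and at 11.7%, 16.5%, 45.8% and 61.7% in WT at SC, CME, CP and CM. That on chromosome 20 stood at 4.22%, 7.52% and 63.6% in TKO, and at 6.53%, 9.10%, 36.9% and 45.4% in WT, so that by level TKO CP lay above WT CP. The measure uses the values that picked the locus, and it is a description.

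RefSeq lists 7 other entries whose names begin with POU5F1, copies of the gene among them. Whether reads of such copies were assigned to the first kb was not tested, with alignment settings not given in the sources used here.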

How the data were processed

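DNA methylation was measured in 7 libraries, 1 per genotype and stage, grouped by their titles. Alignment and calling were done at a sequencing core, per the labels' protocols, with an aligner and caller not given in the sources used here. Coordinates are those of hg19, per the submitters' processing notes. The deposited files give a coverage count per cytosine and strand, which was 10 or more in every line. They also give the percent of reads with C and with T, per the file headers. Coverage times percent gave whole reads in 100% of lines, within the rounding of the percentages.

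Each CpG's reads were summed over its strands. CpGs with 10 or more reads in all 7 libraries were tested singly and in 1 kb tiles of 5 or more, in 5 pairs of libraries, by Fisher's exact test, and the change of the genotype difference by a z test, all with Benjamini-Hochberg adjustment over the whole genome. The tests were checked on simulated counts, drawn independently for each CpG or tile. That check does not cover reads that span several CpGs, PCR copies or a spread between cultures. A read spanning several CpGs counts at each, and PCR copies are not independent, so intervals and limits cover counting error only and can be too narrow. The limit given with a count of 0 is the level that 3 reads would make. Wilson intervals are given for levels and Newcombe intervals for differences, at 95%. Members, regions and tests were chosen with earlier results of these data known. Every CpG of the start tile was to be given, with the widest and narrowest elsewhere and the 5 tiles closest to the start tile. No hg19 annotation was used, so tiles are given by position and other pluripotency genes were not analysed here. No sequence of POU5F1 is printed. Tests used scipy 1.17.1 and numba 0.67.0, with numpy 2.4.6 and pandas 2.3.3 under Python 3.11.15, and plots matplotlib 3.10.9.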

Additional observations from a re-analysis of the deposited data

How the results depend on the processing

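For the tile with the POU5F1 start, 33 of 41 alternatives kept the direction and the side of the threshold, over the 5 pairs and the change of the genotype difference. Some of these could not do otherwise, since a threshold of 40 points leaves a difference that was not called as it was. At 40 points in place of 25, neither the 28.0 points of TKO CP minus TKO CME nor the 29.3 points of WT CP minus WT CME passed, and the CpGs called fell to 1, against 3 and 2. On minus strand reads the TKO step was 24.4 points. With reads divided by the number of CpGs, an alternative chosen after seeing the data, the steps were 27.5 points in TKO and 30.9 points in WT, and neither passed, since this leaves fewer reads to count. As a mean over CpGs, 3 differences that had not passed changed sign: TKO CME minus WT CME to -0.613 points, TKO CP minus WT CP to 1.64 points, and the change of the genotype difference to 2.26 points. Over all alternatives these ranged from -0.613 to 3.73, from -2.76 to 1.64 and from -5.17 to 2.26 points, and none passed. The other 13 counts of called CpGs and the 21 region levels kept within 1.5 times or within their interval. Some of these could not move either: a threshold of 40 points leaves a count of 0 at 0. The levels about 5 kb upstream used the same 3 CpGs in both settings. So did those beyond the gene end in TKO CME, TKO CP, WT CP and WT CM. A minimum of 20 reads with 5 CpGs per tile, and plus strand reads alone, left too few CpGs in the tile for a value. With 20 reads and 3 CpGs, also chosen after seeing the data, the steps were 25.2 points in TKO and 30.4 points in WT. No paired analysis was possible because the groups compared, of 1 library each, share fewer than 2 replicate numbers. A genotype comparison paired by stage was not run, since its SC pair holds WT SC, which was used to pick the locus. Depth limits the CpGs within 250 bases of the start, which had 11 to 16 reads in several libraries.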

Other observations

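Just outside the window, the nearest tested tile on the side of TCF19, from 31127001 to 31128000 and 4114 bases beyond the POU5F1 gene end, showed a genotype difference that the POU5F1 start tile did not show by a call. Its 7 CpGs stood at 57.3%, 59.2% and 54.3% in TKO at SC, CME and CP, and at 28.0%, 29.4%, 10.6% and 12.1% in WT at SC, CME, CP and CM. TKO was higher by 29.8 points at CME (adjusted p = 3.09e-22) and by 43.7 points at CP (adjusted p = 1.04e-79), by Fisher's exact test. Over all tiles, 6.02% were called higher in TKO at CME and 12.0% at CP. TKO CP minus TKO CME was -4.94 points in this tile (adjusted p = 0.103), and WT CP minus WT CME was -18.8 points (adjusted p = 1.18e-14, under the 25 points of a call), also by Fisher's exact test. WT CME carries the suffix, which cannot be told apart from genotype at CME, nor from stage in the WT step. The tile was singled out after its values were seen, and the difference between the tiles was not tested.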
